A study of Homo sapiens with 2 samples.

Results

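The enzymes of the urea cycle and of arginine, ornithine and glutamine metabolism were examined in PLC-8024 cells with and without GDF1. The 9 genes were set by name, CPS1, OTC, ASS1, ASL, ARG1, ARG2, NAGS, OAT and GLUL, and each matched a single entry among the 58174 genes of the RNA-seq data. PLC-8024 is a human hepatocellular carcinoma (HCC) line. PLC-8024-CTR carried a control vector and PLC-8024-GDF1 was overexpressing GDF1, a secreted ligand of the TGF-β superfamily; GDF1 had been delivered by lentivirus, with stable cells selected in puromycin. Each condition had 1 library, so no difference below has a replicate check within these data. No test was made, and the values compare these libraries rather than the conditions. The authors also measured ARG1 and some of the markers below by qPCR in these cells, apart from these libraries. The libraries are called control cells and GDF1 cells below.

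Transcript abundance was given as TPM (a share of all transcripts in a library), which is scaled by gene length and can therefore be compared between genes. TPM keeps no read depth, so the counting error is unknown. Changes are the log2 ratio of TPM + 1 between GDF1 cells and control cells, which understates the change of genes with low TPM, and "past 2-fold" means a log2 change over 1 or under -1. Entries with at least 1 TPM in either library, 14929 in all, formed the background, and their median log2 change was -0.20. The overexpressed gene was listed at 2.096 TPM in control cells and 4.64 TPM in GDF1 cells, while CERS1, whose exons contain the GDF1 coding sequence, was listed at 13.3 TPM and 9612 TPM. Of 15 hepatocyte markers, 14 reached 1 TPM in either library, led by SERPINA1 (5308 and 2915 TPM), and ALB was listed at 15.0 and 6.07 TPM. Of 16 markers of leukocytes, endothelium, stroma, cholangiocytes and progenitors, 6 reached 1 TPM, and all 16 summed to 73.3 and 63.5 TPM. CD68 (33.1 and 13.2 TPM) and the endothelial marker PECAM1 (23.2 and 22.2 TPM) were the most abundant. The stromal marker COL3A1 (3.22 and 1.23 TPM), KRT7, KRT19 and SOX9 were the others that reached 1 TPM. PTPRC, VWF and ACTA2 were listed at 0.0001 TPM, the value standing for 0, in both libraries.

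The urea cycle converts ammonia to urea and is run as a whole mainly by hepatocytes around the portal tract. Its first steps lie in the mitochondrion, where NAGS makes the activator of CPS1, CPS1 builds carbamoyl phosphate from ammonia, and OTC joins it to ornithine to give citrulline. In the cytosol, ASS1 and ASL turn citrulline into arginine and arginase splits arginine into urea and ornithine. OAT links ornithine to glutamate and proline, and GLUL captures ammonia as glutamine in hepatocytes around the central vein.

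Of the 9 enzymes, 8 were lower in GDF1 cells, and OTC was higher. Of all 14929 genes with at least 1 TPM, 9443 were lower and 5486 higher. Among the enzymes, OAT, ARG1, ARG2 and CPS1 were lower past 2-fold, and none was higher past 2-fold. That is 44.4% of the enzymes, against 9.61% of all genes with at least 1 TPM that were lower past 2-fold and 4.82% that were higher. The enzymes were chosen with earlier results of these data known, so this contrast is not that of a blind list. In a bulk library, fewer cells with an expressed gene and less RNA per cell cannot be told apart. The median log2 change of the enzymes was -0.98. Together they held 6952 TPM in control cells (0.695% of all TPM) and 4934 TPM in GDF1 cells (0.493%).

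**Figure D1:**
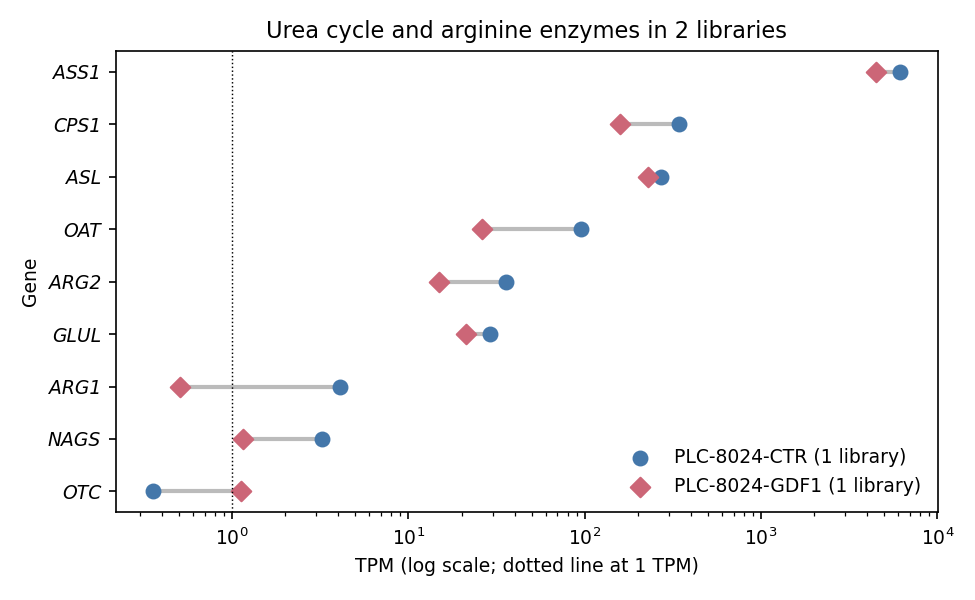
TPM of each enzyme on a log axis, with circles for control cells and diamonds for GDF1 cells, 1 library each, and a grey bar joining them. The diamond lies left of the circle for 8 genes and right of it for OTC, and levels run from under 1 TPM for OTC and ARG1 to 6169 TPM for ASS1.

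The level order was led by ASS1 in both libraries. In control cells it was followed by CPS1 (343.6 TPM), ASL (271.9 TPM), OAT (95.6 TPM), ARG2 (35.6 TPM), GLUL (29.0 TPM), ARG1 (4.11 TPM), NAGS (3.25 TPM) and OTC (0.36 TPM). In GDF1 cells the order was ASS1, ASL, CPS1, OAT, GLUL, ARG2, NAGS, OTC and ARG1. ASL thus stood above CPS1, GLUL above ARG2, and ARG1 last. With 1 library per condition it cannot be said whether neighbours in either order differ beyond replicate spread.

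Of the mitochondrial enzymes, CPS1 (ENSG00000021826, chromosome 2 of GRCh37, 211342406 to 211543831, plus strand, 40 exons in its longest transcript) was listed at 343.6 TPM in control cells and 157.6 TPM in GDF1 cells. This was a log2 change of -1.12, and CPS1 went from rank 400 to rank 854 among all genes. CPS1 is the rate-limiting enzyme of the cycle and one of the most abundant proteins of liver mitochondria. NAGS (ENSG00000161653, chromosome 17, 42081990 to 42086436, plus strand) was listed at 3.25 and 1.16 TPM, a log2 change of -0.98. Its plain ratio was lower past 2-fold (log2 ratio -1.49), and the pseudocount brought it under that limit. NAGS and CPS1, the activator-making enzyme and its target, were thus both lower, and CPS1 exceeded NAGS 106-fold in control cells and 136-fold in GDF1 cells.

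OTC (ENSG00000036473, X chromosome, 38211839 to 38280699, plus strand) was the exception. It was listed at 0.36 TPM in control cells and 1.13 TPM in GDF1 cells, a log2 change of 0.65 and a plain ratio of 3.16. The level stayed near 1 TPM at most, where the depth behind a value is unknown and a pseudocount decides whether 2-fold is passed. CPS1 exceeded OTC, the next enzyme in the cycle, 964-fold in control cells and 139.8-fold in GDF1 cells. OTC thus stood near or under 1 TPM in both libraries, beside an abundant CPS1.

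In the cytosol, ASS1 (ENSG00000130707, chromosome 9, 133320348 to 133376661, plus strand, 16 exons) was listed at 6169 TPM in control cells and 4483 TPM in GDF1 cells, a log2 change of -0.46. It was the gene of rank 13 in control cells and of rank 26 in GDF1 cells, and made up 88.7% and 90.8% of the TPM of the 9 enzymes. Without ASS1, the other 8 enzymes summed to 783.5 and 451.6 TPM. ASL (ENSG00000126522, chromosome 7, 65540787 to 65559684, plus strand) was listed at 271.9 and 229.0 TPM, a log2 change of -0.25, close to the median of all genes. ASS1 and ASL, which act in sequence to make arginine, differed less between libraries than the 6 enzymes other than GLUL, and ASS1 exceeded ASL 22.7-fold and 19.6-fold.

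Copies of these genes were checked because reads could be shared. The 11 ASS1 pseudogenes in the files summed to 0.96 TPM in control cells and 0.52 TPM in GDF1 cells, and no 100-base window of the longest ASS1 transcript occurred in a transcript of another gene. Adding them left the log2 change of ASS1 at -0.46. In ASL, 12.7% of the windows also occurred in AC068533.4, an overlapping gene on the same strand that was listed at 2.53 and 0.31 TPM, and with that gene added the log2 change of ASL was -0.26.

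Both arginases were lower past 2-fold. ARG1, the cytosolic arginase of the hepatocyte urea cycle (ENSG00000118520, chromosome 6, 131791972 to 131905472, plus strand), was listed at 4.11 TPM in control cells and 0.51 TPM in GDF1 cells, a log2 change of -1.76 and an 8.09-fold lower plain TPM. ARG2, the mitochondrial arginase of many non-hepatic tissues (ENSG00000081181, chromosome 14, 68086637 to 68118425, plus strand), was listed at 35.6 and 14.9 TPM, a log2 change of -1.20. ARG2 was the more abundant arginase in both libraries, 8.67-fold over ARG1 in control cells and 29.3-fold in GDF1 cells. The arginases together summed to 39.8 and 15.4 TPM. ARG1 overlaps MED23 on the opposite strand, which was itself listed at 3.31 and 1.25 TPM, and ARG2 overlaps VTI1B on the opposite strand, listed at 17.4 and 18.9 TPM. The counting is not stated to use strand, so reads from such pairs might not be told apart, and their part in these values was not tested.

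The promoters of ARG1, ARG2 and OTC are shown because ARG1 and ARG2 encode the same activity at different levels and OTC was the enzyme that was higher. They are RefSeq sequences on GRCh38.p14, from 250 bases before to 50 bases after the annotated start, at chr6:131572976-131573275, chr14:67619670-67619969 and chrX:38352354-38352653, all on the plus strand. Capitals mark matches on either strand to TATAAA, called the TATA box here, to CCAAT, the CCAAT box, to GGGCGG, the GC box, and to TGACGTCA, the cAMP response element. Among 35116 promoters in the table, these letters occurred in 11.5%, 34.6%, 45.0% and 1.85%, respectively.
ARG1: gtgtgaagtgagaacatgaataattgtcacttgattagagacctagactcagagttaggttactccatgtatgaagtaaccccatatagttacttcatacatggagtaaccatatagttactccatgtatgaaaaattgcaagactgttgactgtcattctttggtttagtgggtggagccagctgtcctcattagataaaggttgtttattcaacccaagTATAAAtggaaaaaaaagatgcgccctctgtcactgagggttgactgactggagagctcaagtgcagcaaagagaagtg
ARG2: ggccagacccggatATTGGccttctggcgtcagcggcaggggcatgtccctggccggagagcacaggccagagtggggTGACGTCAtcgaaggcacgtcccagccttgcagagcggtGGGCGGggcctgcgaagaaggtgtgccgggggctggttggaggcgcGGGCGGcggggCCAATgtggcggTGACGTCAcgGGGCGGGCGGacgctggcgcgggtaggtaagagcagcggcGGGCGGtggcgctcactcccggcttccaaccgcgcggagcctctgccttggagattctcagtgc
OTC: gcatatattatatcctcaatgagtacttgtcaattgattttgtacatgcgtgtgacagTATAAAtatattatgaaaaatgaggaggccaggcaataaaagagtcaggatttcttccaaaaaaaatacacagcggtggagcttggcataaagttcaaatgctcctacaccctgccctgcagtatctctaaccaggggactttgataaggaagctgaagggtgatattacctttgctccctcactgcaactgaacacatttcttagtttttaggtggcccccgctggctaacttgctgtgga

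The ARG1 promoter held 1 TATA box at position -29 and 1 CpG dinucleotide, against a median of 14 CpG over all promoters. The ARG2 promoter held no TATA box, 5 GC boxes, 2 of which overlapped, and 31 CpG, with cAMP response elements at positions -172 and -64. The OTC promoter held a TATAAA match only far upstream, at position -192, and 3 CpG. All 9 enzymes had an entry in the table. TATAAA occurred in 2 of the 9, in ARG1 and OTC, and the GC box in 6, in NAGS, ASS1, ASL, ARG2, OAT and GLUL. The 3 genes whose promoters held at most 3 CpG, ARG1, OTC and CPS1, changed by -1.76, 0.65 and -1.12 on the log2 scale, so they did not share a direction. These matches describe the letters only.

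On the ornithine and glutamine side, OAT (ENSG00000065154, chromosome 10, 126085872 to 126107545, minus strand) was listed at 95.6 TPM in control cells and 26.2 TPM in GDF1 cells. Its log2 change of -1.83 was the lowest of the 9 with a pseudocount of 1, and 1.71% of all genes with at least 1 TPM lay lower. ARG1 was the lowest with a pseudocount of 0.1 (-2.79), as a plain ratio (-3.02) and after either rescaling (-1.69 and -1.92). OAT moves the amino group of ornithine and leads it towards glutamate and proline. GLUL (ENSG00000135821, chromosome 1, 182347233 to 182361341, minus strand) was listed at 29.0 and 21.2 TPM, a log2 change of -0.44. OAT exceeded GLUL 3.30-fold in control cells and 1.23-fold in GDF1 cells.

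Lower values past 2-fold were less common among abundant genes. They numbered 10.9% of genes with a mean of 1 to 10 TPM, the class of ARG1 and NAGS, 9.07% of those with 10 to 100 TPM, the class of OAT, ARG2 and GLUL, and 4.95% of those with at least 100 TPM, the class of CPS1, ASS1 and ASL. OTC, with a mean under 1 TPM, is in none of these classes. OAT, ARG2 and CPS1 passed 2-fold with a mean above 10 TPM, while ARG1 stood under 1 TPM in GDF1 cells.

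**Figure D2:**
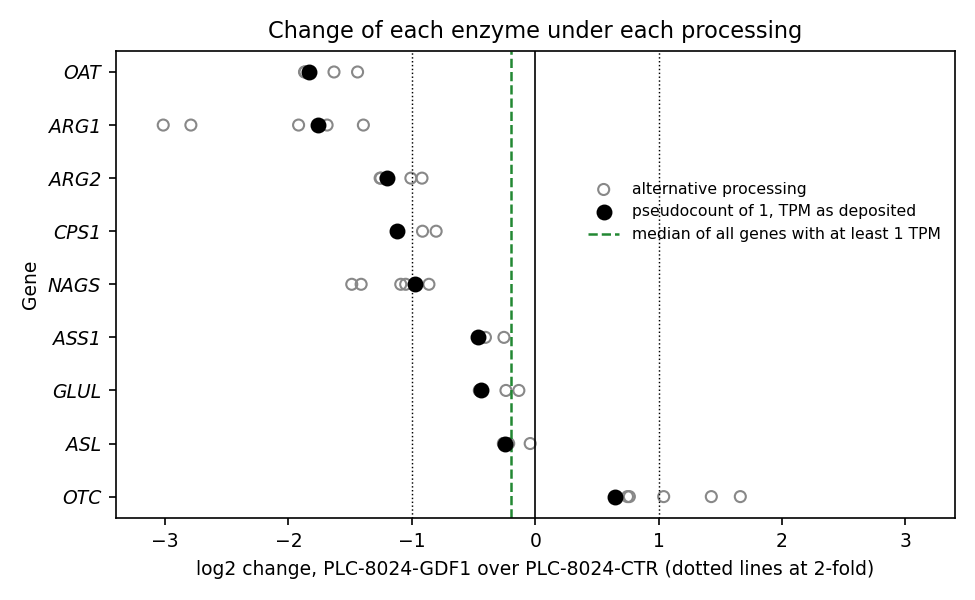
Log2 change of each enzyme, GDF1 cells over control cells, with filled points for TPM as deposited with a pseudocount of 1 and open circles for the alternative processings; dotted lines mark 2-fold and the dashed line the median of all genes (-0.20). OAT and ARG1 lie beyond 2-fold under each setting drawn, CPS1, ARG2, NAGS and OTC cross the 2-fold line under some, and ASS1, ASL and GLUL stay within it.

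The change of all genes followed GC content, which was therefore set beside the enzymes. Among protein-coding genes with at least 1 TPM, split into 5 classes of like size by GC content (taken from the longest transcript), the median log2 change was -0.48 in the class of lowest GC and 0.11 in that of highest GC. OAT (41.0% GC) and OTC (40.9%) lay in the lowest class, and ARG1 (42.2%), CPS1 (44.2%), GLUL (44.7%) and ARG2 (45.4%) in the next. In these classes, 14.0% and 13.5% of genes were lower past 2-fold. With the GC trend subtracted, OAT (-1.44) and ARG1 (-1.39) were still lower past 2-fold, and CPS1 (-0.80) and ARG2 (-0.92) were not. NAGS, at 63.4% GC, lay in the highest class, and its log2 change after subtraction was -1.09.

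**Figure D3:**
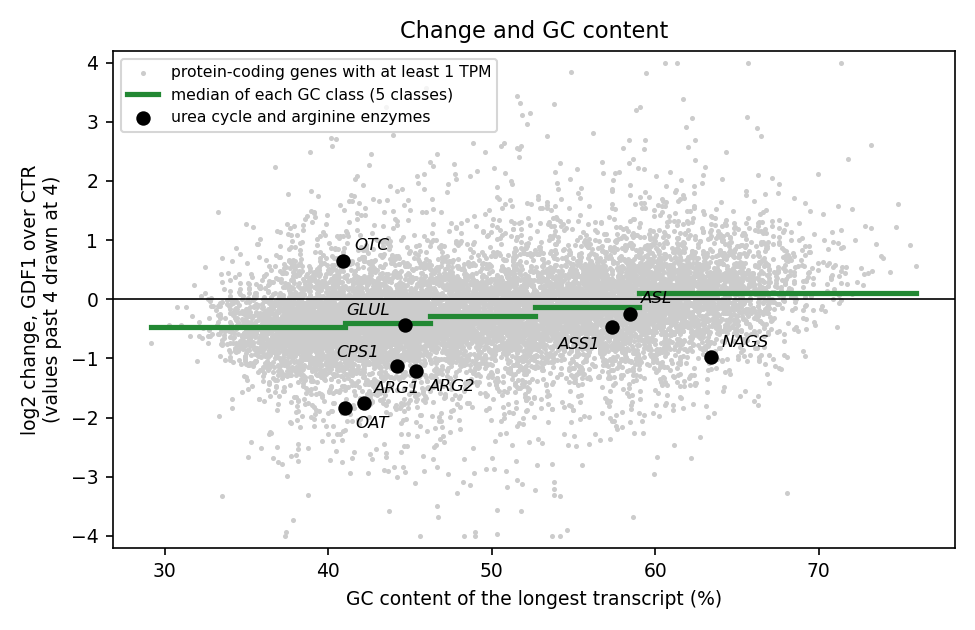
Log2 change against the GC content (%) of the longest transcript for protein-coding genes with at least 1 TPM (grey), with green bars for the median of each of 5 GC classes and black points for the 9 enzymes. OAT, ARG1, ARG2 and CPS1 lie below the bars of their classes, which are themselves below 0, and NAGS lies below a bar that is above 0.

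The genes that feed the cycle, carry its intermediates and use its products were then counted in 8 lists. These lists also include pericentral genes (around the central vein) and transcription factors of urea cycle genes. Of the 75 genes in all 8 lists, 64 reached 1 TPM in either library. Of these, 10 were lower past 2-fold (15.6%), against 9.61% of all genes with at least 1 TPM. The transcription factors gave 3 of the 10 and the pericentral genes 1. None of the 64 was higher past 2-fold, against 4.82% of all genes. Their median log2 change was -0.45, against -0.20 for all genes. With GDF1 cells rescaled so that the median ratio of genes with at least 5 TPM was 0, which moved the median of all genes by 0.17, 6 were lower and 3 higher past 2-fold. The same rescaling changed the split over all genes from 1434 lower and 720 higher to 1022 lower and 1040 higher, and left 3 of the 9 enzymes lower past 2-fold (OAT, ARG1 and ARG2) and none higher.

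Of the 11 expressed genes for fuel and carriers, 2 were lower past 2-fold (18.2%, against 9.61% of all genes). SLC25A15, the mitochondrial carrier that exchanges ornithine for citrulline, was listed at 38.5 TPM in control cells and 7.33 TPM in GDF1 cells, a log2 change of -2.25, further from 0 than that of any of the 9 enzymes on this scale. GLUD2 was listed at 11.9 and 4.50 TPM (log2 change -1.23), and because it is a retrotransposed copy of GLUD1 that could share its reads, its value is uncertain. GOT1, the cytosolic aspartate aminotransferase, was the most abundant, at 171.5 and 90.1 TPM (log2 change -0.92). The list's median was -0.81.

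Of the 7 expressed genes for ornithine and proline, 1 was lower past 2-fold (14.3%, against 9.61% of all genes). It was PRODH, which begins proline breakdown, listed at 18.0 and 6.83 TPM (log2 change -1.28). PYCR1, which completes proline synthesis, was the most abundant, at 284.0 and 308.6 TPM (log2 change 0.12). The list's median was -0.36.

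Of the 11 expressed polyamine genes, 2 were lower past 2-fold (18.2%, against 9.61% of all genes) and the median was -0.43. ODC1, which decarboxylates ornithine, was listed at 391.8 and 186.3 TPM (log2 change -1.07), and the spermine synthase SMS at 103.9 and 49.6 TPM (log2 change -1.05). OAZ1, an antizyme that restrains ODC1, was listed at 875.5 and 924.0 TPM (log2 change 0.08). ODC1 and SMS lay within 2-fold with the median ratio rescaled to 0, at -0.86 and -0.85. They also lay within it with the GC trend removed, at -0.84 and -0.73.

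Of the 9 expressed genes for arginine use, 1 was lower past 2-fold (11.1%, near the 9.61% of all genes). DDAH1, which clears methylated arginines, was listed at 28.7 and 11.9 TPM (log2 change -1.21). With the GC trend removed, DDAH1 lay within 2-fold (-0.81). DDAH2, another gene of this list named here after its values were seen, was more abundant and higher, at 72.5 and 127.2 TPM (log2 change 0.80). PRMT1, the main arginine methyltransferase, was listed at 423.1 and 505.7 TPM (log2 change 0.26), and the list's median was -0.31. None of the 6 expressed arginine transport genes passed 2-fold, with changes from -0.75 to 0.87 and SLC3A2, a shared heavy chain, at 232.7 and 181.5 TPM. The plain ratio of SLC7A2, a cationic amino acid transporter also named after its values were seen, did pass it (1.51 and 3.57 TPM, log2 ratio 1.25). None of the 4 genes of pyrimidine synthesis and asparagine synthesis passed 2-fold, with changes from -0.86 to -0.14 and ASNS at 231.4 and 127.2 TPM.

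**Figure D4:**
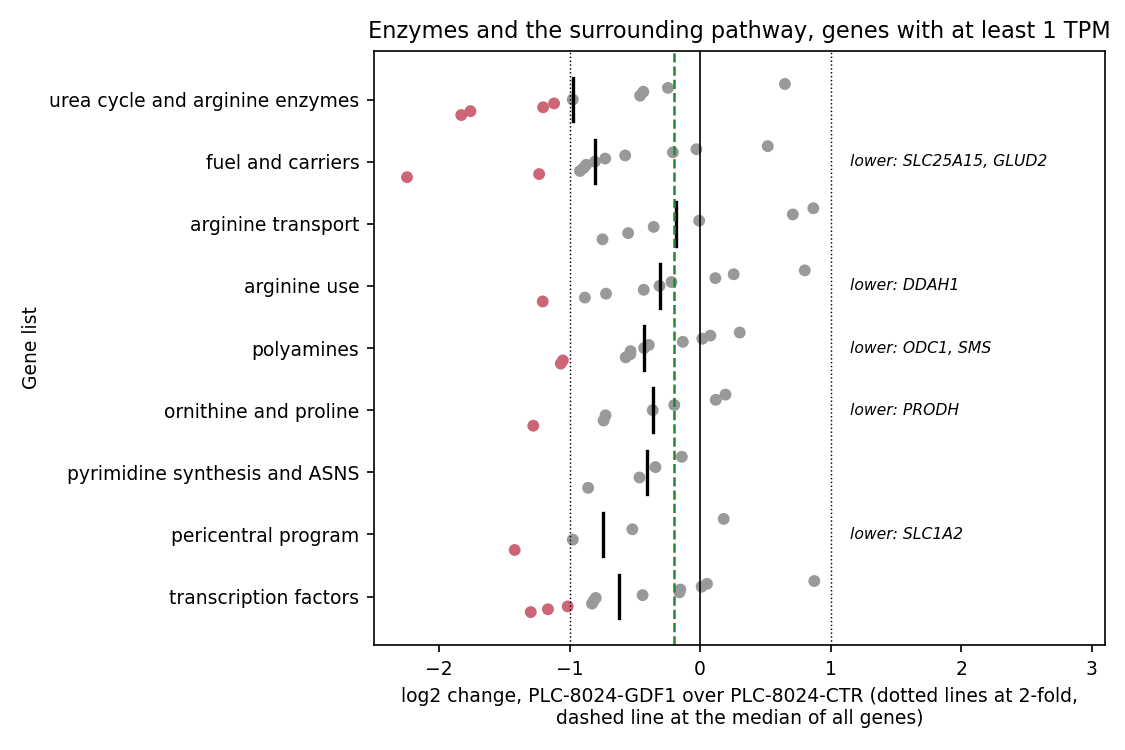
Log2 change, GDF1 cells over control cells, of each gene with at least 1 TPM in the 9 enzymes and in 8 pathway lists, with red points past 2-fold and black bars at the medians. The 9 enzymes have the lowest median (-0.98) and SLC25A15 is the lowest single gene (-2.25).

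GLUL is known as a pericentral hepatocyte gene under Wnt control, and the other genes of that program were at low levels. Of 10, 4 reached 1 TPM, and 1 of these 4 was lower past 2-fold (25.0%, against 9.61% of all genes). It was SLC1A2, a glutamate transporter, listed at 6.19 and 1.68 TPM (log2 change -1.42). RNF43, a Wnt-induced ubiquitin ligase, was listed at 6.52 and 7.52 TPM (log2 change 0.18). CYP2E1 and LGR5, named here after their values were seen, were under 1 TPM in both libraries.

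The median log2 change of 12 transcription factors known to act on urea cycle genes was -0.62. Of these factors, 3 were lower past 2-fold (25.0%, against 9.61% of all genes). They included the liver regulators FOXA2 (20.4 and 7.70 TPM, log2 change -1.30) and HNF4A (11.4 and 5.15 TPM, -1.02). ATF4, the stress factor, was the most abundant, at 821.9 and 604.9 TPM (log2 change -0.44). HNF4A lay within 2-fold with the median ratio rescaled to 0 (-0.84) and with the GC trend removed (-0.91). Of the 14 expressed hepatocyte markers, 6 were lower past 2-fold (42.9%, against 9.61% of all genes). In all, 12 of these markers were lower and 2 were higher in GDF1 cells. Of all 14929 genes with at least 1 TPM, 9443 were lower and 5486 higher. The 2 higher markers were FGA (467.6 and 911.1 TPM, log2 change 0.96) and TF (1318 and 1434 TPM, 0.12). The median log2 change of the markers was -0.85, and their sum was 16827 TPM in control cells and 11593 TPM in GDF1 cells. Of the 6 expressed markers of other cell types, 2 were higher past 2-fold, 1 was lower and 3 lay within it. Over all genes with at least 1 TPM, 4.82% were higher past 2-fold and 9.61% lower. The higher markers were those of cholangiocytes, KRT7 (log2 change 1.17) and KRT19 (log2 change 1.13). Both (62.0% and 61.8% GC) lay in the class of highest GC, where 8.31% of genes were higher past 2-fold. CD68 (log2 change -1.26), a macrophage marker, was the lower one of the 6. SOX9 and EPCAM, of the same list, did not follow KRT7 and KRT19. SOX9 changed by 0.19, and EPCAM was under 1 TPM in both libraries (0.17 and 0.0001 TPM). The part of the markers and the factors in the enzymes' values was not tested.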

How the data were processed

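RNA-seq was performed on 1 library of PLC-8024-CTR and 1 of PLC-8024-GDF1. Per the submitters' processing notes and the methods, poly-A paired-end reads were trimmed with Trimmomatic 0.36, aligned to hg19 with HISAT2 2.1.0 and quantified with StringTie 1.3.3b. The authors deposited 1 TPM value per gene and library. The methods name a RefSeq annotation, whereas the files carry Ensembl identifiers. TPM keeps no depth, so no interval is given.

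Both tables were joined on the gene identifier, and members were taken by gene symbol. No test was made, because each condition has 1 library. The members, lists and comparisons were chosen with earlier results of these data known, and motifs after the sequences were seen. Genes were named if they were members, past 2-fold in a list or the most abundant of a list, with GDF1, CERS1, markers and overlapping genes or copies. The values of 1 gene counted in a list are not reported here. No gene of like pattern was named, since 2 libraries hold 1 difference per gene. Positions and GC content came from GENCODE v44 on GRCh37, which held 55726 of the 58174 identifiers. The GC trend was a lowess fit with a span of 0.3. The alternatives were a pseudocount of 0.1, the plain TPM ratio, 2 rescalings, removal of the GC trend, copies or overlapping genes added up, and other TPM minimums. Python 3.11.15, numpy 2.4.6, pandas 2.3.3, statsmodels 0.14.6 and matplotlib 3.10.9 were used, and the calculations were tested on simulated data.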

Additional observations from a re-analysis of the deposited data

How the results depend on the processing

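No paired analysis was possible because neither condition was sequenced more than once. For a single gene the direction and the side of 2-fold were compared between settings, and for counts and medians a move of more than 1.5 times. No enzyme changed direction under the alternatives run, and 41 of 51 values stayed on their side of 2-fold. A smaller pseudocount or a plain ratio cannot reverse a direction, and the added copies and overlapping genes were too low to do so. Only the 2 rescalings and removal of the GC trend could have reversed one. Under a smaller pseudocount (0.1) and under the ratio without one, NAGS (-1.41 and -1.49) and OTC (1.43 and 1.66) passed 2-fold, so that 1 enzyme was higher past it. Rescaling over protein-coding nuclear genes brought NAGS to -1.05. With the median ratio rescaled to 0, CPS1 was at -0.91. With the GC trend removed, CPS1 (-0.80) and ARG2 (-0.92) no longer passed, while NAGS (-1.09) and OTC (1.04) did, which made 1 enzyme higher past 2-fold. The enzymes lower past 2-fold numbered 3 to 5, and their median lay between -1.12 and -0.79. The background moved as well. With the GC trend removed, 3 enzymes and 888 of all genes were lower past 2-fold, and the median of all genes was -0.01. As a plain ratio, 5 enzymes and 2437 of all genes were lower past 2-fold, and the median of all genes was -0.24.

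For the pathway lists, alternatives were added after the data were seen. With a pseudocount of 0.1 and as a plain ratio, 16 pathway genes were lower past 2-fold and 2 higher. Over all genes, 2315 and 2437 were lower past 2-fold in these settings, against 1434 with a pseudocount of 1. Those higher past 2-fold numbered 1167 and 1229, against 720. With the median ratio rescaled to 0, 6 pathway genes were lower, 3 higher, and their median was -0.27. With the GC trend removed, 7 pathway genes were lower and 1 higher, against 888 lower and 921 higher over all genes. None of the 18 pathway genes that passed 2-fold or were the most abundant of their list changed direction in 90 values. The values with a smaller pseudocount or as a plain ratio could not have done so. Of the 90 values, 8 no longer passed 2-fold. The cause of these shifts was not tested beyond what each alternative does by construction. The depth behind the low TPM values of ARG1, NAGS and OTC is unknown.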
